A study of Drosophila mojavensis with 97 samples.

Results

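A set of 35 transcripts was followed that were most abundant at 25°C and less abundant at both 15 and 35°C in adult females of the cactus fly *Drosophila mojavensis*, out of 14528 transcripts on the array. They were chosen on the measured temperature response itself. From the mean log2 value of each of 24 groups of arrays, a transcript was taken when its mean over the 8 groups at 25°C exceeded that of the 8 groups at 15°C by at least 0.25, its mean at 35°C lay at least 0.25 below that at 25°C, each of these steps had the same direction in at least 7 of the 8 combinations of population and cactus, and Baja California and the mainland differed by less than about 1.5 times. The rule also set aside 3 named transcripts, those of the P450 gene *phantom* and of the vitelline membrane genes Vm26Aa and Vm26Ab, of which Vm26Ab alone would otherwise have passed it. Both temperature steps and the difference between regions are therefore descriptions here and carry no test.

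All flies were wild-type stocks, 1 from each of 4 localities: San Quintin (SQ) and Punta Prieta (PP) on the peninsula of Baja California, and Organ Pipe National Monument, Arizona (OPNM) and Punta Onah, Sonora (PO) on the mainland. They developed on food made from agria (AG) or organ pipe (OP) cactus, matured as adults on laboratory medium, and were then held at 15, 25, or 35°C before whole females, pooled for each RNA sample, were frozen. Each of the 24 groups had 4 arrays except PP females from agria at 35°C, which had 5, for 97 arrays in all. The labels number the replicates but do not say that they came from separate cultures, so the p-values measure the spread between pooled samples of 1 stock for each locality. In pooled whole bodies, fewer cells of a type and less RNA per cell cannot be told apart.

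Flies are ectotherms, and the transcription of many of their genes follows the temperature of the air. Some transcripts change in 1 direction as it warms. Others have their highest level at a mild temperature and a lower one on either side. Egg production in drosophilid females has such an intermediate optimum, and it depends on juvenile hormone and ecdysteroids, on yolk, and on the eggshell proteins that follicle cells secrete around each egg.

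Array medians lay between 9.81 and 10.10 on the log2 scale, while array interquartile ranges ran from 2.51 to 3.42. For each array, the root mean square of its deviations from the group means over all transcripts had a median of 0.20, and 4 arrays stood apart with values of 0.51 to 0.73, SQ from agria at 35°C replicate 4, SQ from organ pipe at 35°C replicates 1 and 4, and PP from organ pipe at 35°C replicate 4. All 4 were Baja California arrays at 35°C. Without them the same rule gave 75 transcripts, which included 32 of the 35, and without the first of them alone it gave 56, which included 34. The eggshell transcript Vm26Ab, a marker of ovarian follicle cells, was measured at 10.52 to 14.24 over the arrays at 15 and 25°C, and the markers of the male reproductive tract are paired with no transcript by the available tables, so that they were not examined.

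Averaged over the 35 transcripts, single arrays lay between 10.02 and 10.80 at 15°C, between 10.85 and 11.47 at 25°C, and between 10.22 and 10.88 at 35°C. The arrays at 15 and 25°C did not overlap in this average, and those at 25 and 35°C overlapped slightly. The median step from 15 to 25°C was 0.53 on the log2 scale and ranged from 0.25 to 2.27, while the median step from 25 to 35°C was -0.53 and ranged from -1.87 to -0.25. Over all 14528 transcripts the medians of these steps were 0.02 and -0.02. Of the 35, 16 were higher at 25 than at 15°C by at least 1.5 times, 14 were lower at 35 than at 25°C by as much, and 9 did both. Since the rule used both steps, they are given for the 35 with no test. In the limma fit of all arrays, with a threshold of 0.01 for the adjusted p, 1.71% of all transcripts were higher at 25 than at 15°C, 7.02% were lower at 35 than at 25°C, and 0.337% were both.

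**Figure D1:**
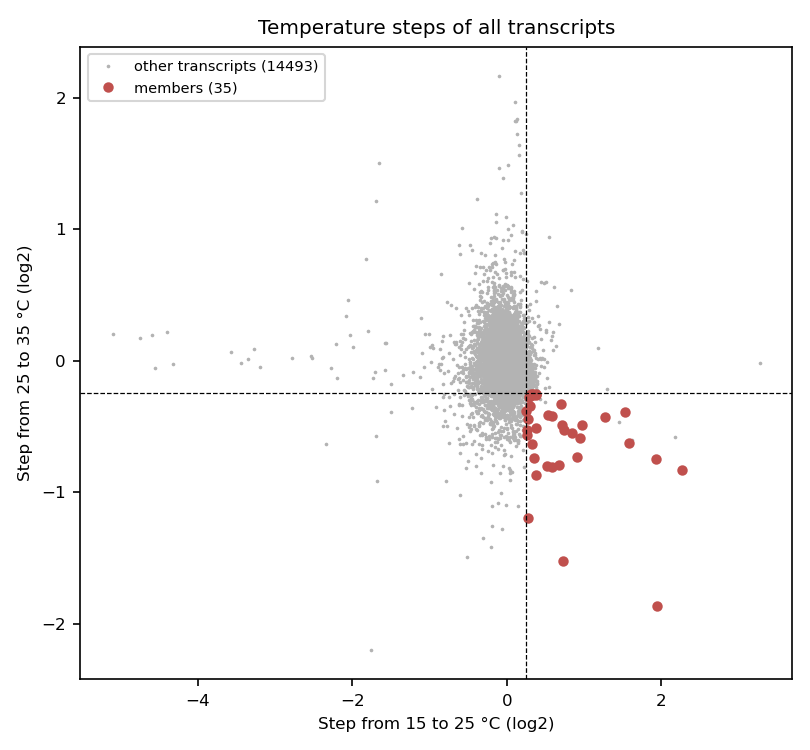
Step from 15 to 25°C (horizontal axis, log2) against the step from 25 to 35°C (vertical axis, log2) for each transcript, with the 35 members in red and the other transcripts in gray. Dashed lines mark 0.25 and -0.25, the step limits used to choose the members. The lower right corner past both lines holds 45 transcripts, the 35 members among them, which reach out to 2.27 and -1.87. The others there failed another part of the rule or were set aside by name.

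The transcripts nearest to the limits were almost the same on either side. The last 3 inside were FBtr0161973, with a smaller step of 0.2533, FBtr0162601 with 0.2526, and FBtr0172573 with 0.2525. The first 3 outside were FBtr0172168 with 0.2498, FBtr0165280 with 0.2478, and FBtr0162329 with 0.2445. A limit of 0.2 would have taken in 65 transcripts, and a limit of 0.3 would have kept 23 of the 35.

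The available supplementary tables of the study pair 17 of the 35 transcripts with a gene and 8 with an orthologue or a functional term. These tables mostly list genes that the study selected from the same arrays, so that the annotated share is not a random draw. The other 27 are given by their identifiers, with no role. No transcript table or genome joined to these identifiers was used here, so that no sequence or position is given.

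The transcript with the largest smaller step was FBtr0163649 (FBgn0135681), which has no functional term. At 15°C its values had a lowest, median, and highest array of 10.41, 11.67, and 13.24 (n = 32), at 25°C of 12.58, 13.68, and 14.19 (n = 32), and at 35°C of 10.37, 11.74, and 12.69 (n = 33). The profile was nearly symmetric. At 25°C, 28 of the 32 arrays were above every array at 15°C, 31 of the 32 were above every array at 35°C, and the means at 35 and 15°C differed by 0.07. The step to 25°C was 1.94 (SE 0.14) and the step to 35°C was -1.87 (SE 0.14), and over the 8 combinations the first ran from 1.69 to 2.20 and the second from -2.57 to -1.44.

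FBtr0172526, FBtr0162051 (FBgn0134087), and FBtr0162033 (FBgn0134069), also without a functional term, followed. FBtr0172526 averaged 10.67 at 15°C, 12.94 at 25°C, and 12.13 at 35°C (SDs 0.55, 0.45, and 0.76 over 32, 32, and 33 arrays), and its lowest array at 25°C, 12.16, lay below the highest at 15°C, 12.32. FBtr0162051 averaged 10.66, 12.60, and 11.87 (SDs 0.95, 0.47, and 0.82 over 32, 32, and 33 arrays). Both were lopsided, with a level at 35°C above that at 15°C by 1.44 and 1.19. FBtr0162033 was closer to symmetric, with a lowest, median, and highest array of 8.36, 8.93, and 10.02 at 15°C, 9.17, 9.85, and 10.69 at 25°C, and 8.04, 9.19, and 10.17 at 35°C. At 35°C, 6, 7, and 3 of the 33 arrays of these transcripts were above the median at 25°C.

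A pair of further transcripts were singled out after their values were seen. FBtr0162041 was the only one of the 35 whose arrays at 15 and 25°C did not overlap. Its highest array at 15°C was 12.28 and its lowest at 25°C was 12.30, and its arrays at 35°C ran from 11.08 to 12.87. The rule used the step between these temperatures, and such separation was not counted over all transcripts. FBtr0168952 had most of its change at the warm end, with means of 12.09, 12.82, and 11.29 (SDs 0.67, 0.37, and 0.45 over 32, 32, and 33 arrays), and 32 of its 33 arrays at 35°C lay below every array at 25°C.

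**Figure D2:**
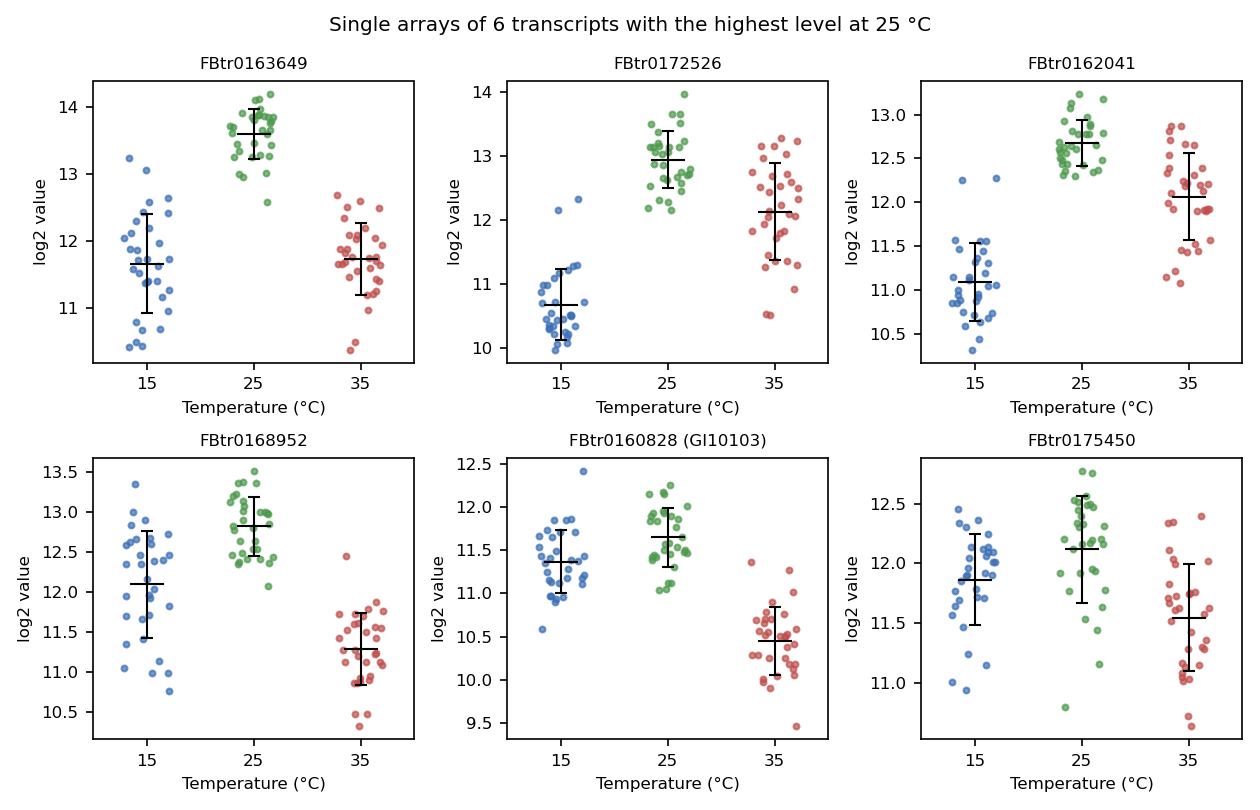
Values of single arrays (log2) at 15, 25, and 35°C for 6 transcripts, with black bars for the mean and its SD (n = 32, 32, and 33 arrays). The mean at 25°C is the highest in every panel, from a nearly symmetric profile in FBtr0163649 to a small step at the cold end in GI10103, where the means were 11.37, 11.65, and 10.45.

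Among the 8 annotated transcripts, the one with an orthologue was FBtr0160828 (GI10103), the orthologue of *CG10407* of *D. melanogaster*. Its protein carries the domain of insect juvenile hormone-binding proteins, carriers of the hormone that promotes egg maturation, and the tables list it under hormone binding. Its lowest, median, and highest arrays were 10.59, 11.37, and 12.42 at 15°C (n = 32), 11.05, 11.58, and 12.26 at 25°C (n = 32), and 9.46, 10.51, and 11.36 at 35°C (n = 33). The arrays at 15 and 25°C overlapped broadly, while 31 of the 33 arrays at 35°C lay below every array at 25°C. The step to 25°C was 0.28 (SE 0.09), positive in 8 of 8 combinations and as small as 0.04 in 1 of them, against a step of -1.20 (SE 0.08) to 35°C that ran from -1.51 to -0.85.

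Regulators of transcription made up the next group. FBtr0170936 (FBgn0142947) is listed as a zinc-finger protein with sequence-specific DNA binding, and such proteins switch target genes on or off. It averaged 10.09 at 15°C, 10.93 at 25°C, and 10.41 at 35°C (SDs 0.26, 0.42, and 0.54 over 32, 32, and 33 arrays). FBtr0169070 (FBgn0141084), listed as a transcription factor with no zinc finger named, averaged 9.02, 10.00, and 9.52 (SDs 0.28, 0.32, and 0.41 over 32, 32, and 33 arrays). Both had the larger step at the cold end, 0.84 and 0.97, and the step to 35°C was -0.55 and -0.49. The first was higher at 35 than at 25°C by 0.09 in PP flies from organ pipe, its only combination with the other direction.

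Oxidative enzymes were represented by 2 transcripts. FBtr0175450 (FBgn0147447) is a cytochrome P450, a heme monooxygenase of the kind that metabolizes hormones and plant compounds, and it averaged 11.86, 12.12, and 11.55 (SDs 0.38, 0.45, and 0.45 over 32, 32, and 33 arrays) at the 3 temperatures. Its step to 25°C, 0.26, was just over the limit, and it was -0.24 in OPNM flies from organ pipe. FBtr0163840 (FBgn0135872), listed only under oxidation and reduction, averaged 9.49, 10.02, and 9.61 (SDs 0.65, 0.49, and 0.52 over 32, 32, and 33 arrays). For both, the arrays of all 3 temperatures overlapped widely.

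The 3 annotated transcripts that remain were listed under nucleotide binding. FBtr0164855 (FBgn0136884), an ATP-binding protein, had steps of 0.34 (SE 0.04) and -0.26 (SE 0.04), and its residual SD of 0.16 was the smallest of the 35. FBtr0170320 (FBgn0142332), also ATP-binding, had steps of 0.33 and -0.25 (SE 0.07 each). Neither met the limit of 0.25 in the fall without the 4 arrays that stood apart, with steps to 35°C of -0.24 and -0.23. FBtr0166098 (FBgn0138122), under cofactor and nucleotide binding, had steps of 0.95 and -0.59 (SE 0.13 each) and was higher at 35 than at 25°C by 0.13 in PP flies from agria.

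Over all 35, the level at 35°C was above that at 15°C in 21 and below it in 14. In 9 the difference was over 0.25, up to 1.44 in FBtr0172526, and in 8 it was under -0.25, down to -0.92 in GI10103. The remainder lay between these limits. The step to 35°C was the larger of the steps in 14 transcripts.

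Both steps ran the same way in 8 of 8 combinations in 21 of the transcripts, 8 had a single exception in the first step and 8 in the second, and 2 of these had both. The exceptions lay in several groups. The level at 25°C was not above that at 15°C in 3 transcripts in OPNM flies from organ pipe, 2 in OPNM flies from agria, 2 in SQ flies from organ pipe, and 1 in PP flies from agria. The level at 35°C was not below that at 25°C in 3 transcripts in PO flies from organ pipe, 2 in PP flies from agria, and 1 each in OPNM flies from either cactus and PP flies from organ pipe. The median step to 25°C was smallest in SQ flies from organ pipe, 0.34, and largest in OPNM flies from agria, 0.75. The median step to 35°C was smallest in PP flies from agria, -0.34, and largest in SQ flies from agria, -0.75. Since the rule used the direction in these combinations, differences between them were not tested. SQ flies from agria at 35°C include 1 of the arrays that stood apart.

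**Figure D3:**
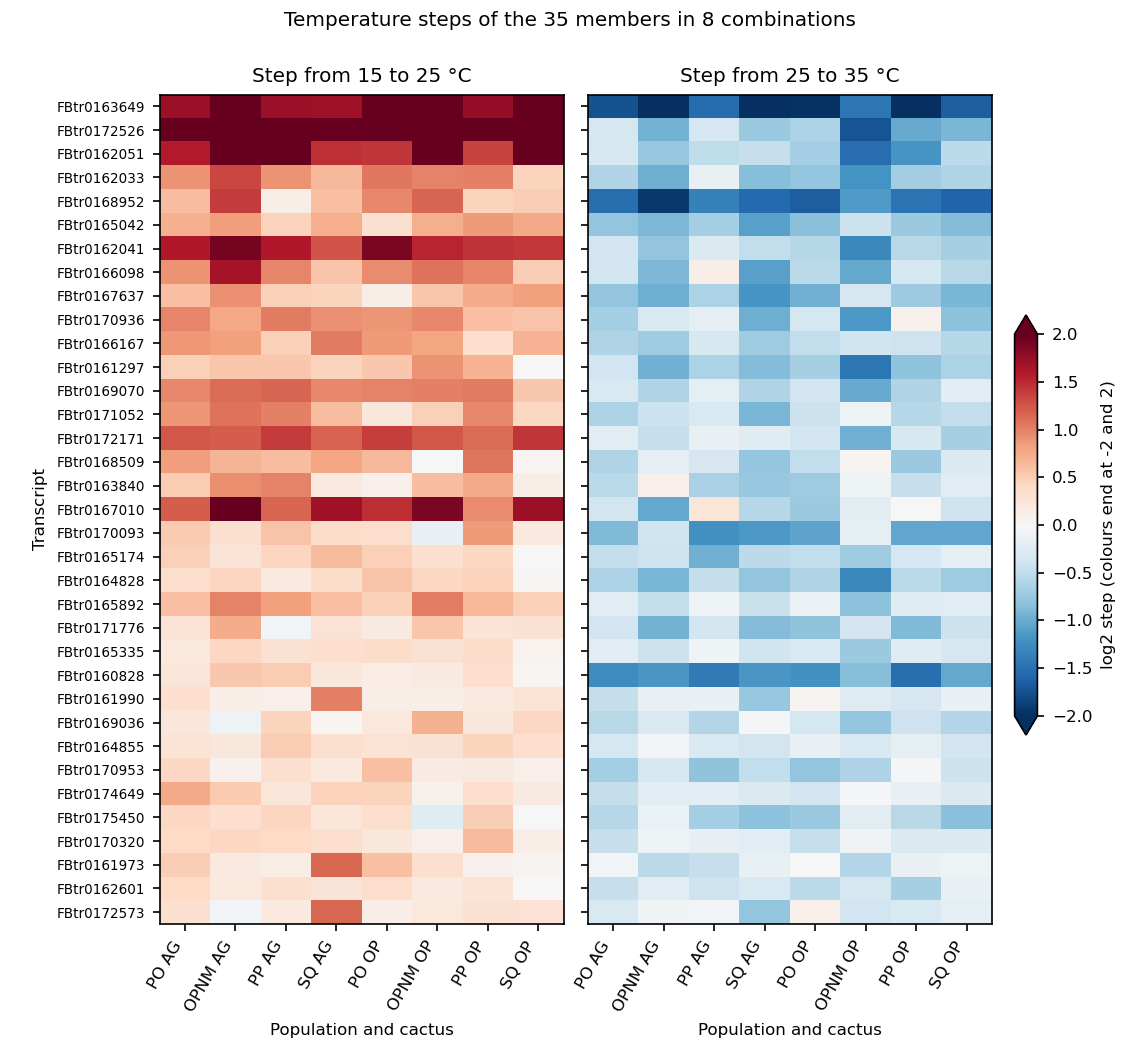
Step from 15 to 25°C (left) and from 25 to 35°C (right) in each of the 35 transcripts (rows, largest smaller step at the top) and the 8 combinations of population and cactus (columns, AG agria, OP organ pipe). Colors give the log2 step and end at -2 and 2. Red fills the left panel and blue the right one, and no step of the other sign lies in the upper 7 rows.

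The differences between cacti and between populations of the same region were not used to choose the transcripts and were tested in limma, fitted to all arrays and all 14528 transcripts, with Benjamini-Hochberg adjustment over all pairwise comparisons and a threshold of 0.01. Agria and organ pipe rots differ in their sugars, alcohols, and triterpene glycosides, and flies of this species use both as hosts. Of the 35, 8 (22.9%) differed between flies from agria and organ pipe, and all 8 were higher after development on agria. Over all transcripts 17.0% differed, and 14.5% were higher on agria and 2.44% on organ pipe. At an unadjusted p under 0.05 in limma, 18 of the 35 (51.4%) differed, a lower share than the 55.2% of all transcripts. The median difference was 0.13 in the 35, with 28 of them higher on agria, and -0.03 over all transcripts, of which 42.7% were higher on agria.

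FBtr0166098 had the largest difference of the 8. Its lowest, median, and highest arrays were 7.55, 8.89, and 10.29 on agria (n = 49) and 7.39, 8.56, and 10.19 on organ pipe (n = 48). The ranges almost coincided, and the shift was 0.43 (SE 0.11, adjusted p = 0.00441, limma), with agria higher in 11 of 12 pairs of groups matched for population and temperature. FBtr0163840, the transcript listed under oxidation and reduction, had 8.19, 10.07, and 10.87 on agria and 8.20, 9.54, and 10.58 on organ pipe, a difference of 0.38 (SE 0.09, adjusted p = 0.00225, limma, 11 of 12). FBtr0171052, with no annotation, had 7.86, 8.94, and 9.79 on agria and 7.65, 8.65, and 9.57 on organ pipe, a difference of 0.35 (SE 0.07, adjusted p = 0.000142, limma, 11 of 12).

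The zinc-finger transcript FBtr0170936 exceeded its organ pipe level by 0.32 on agria (SE 0.07), with an adjusted p of 0.000976 in limma, and the P450 transcript FBtr0175450 did so by 0.28 (SE 0.06) with an adjusted p of 0.000711, both in 10 of 12 combinations. The other 3, FBtr0168509, FBtr0170093, and FBtr0174649, have no functional term, and their differences were 0.28, 0.27, and 0.19. Differences of the 27 transcripts that did not pass ran from -0.34 to 0.28. These calls depended on the arrays in the fit. Without replicate 1 of every group 1 of the 8 remained, FBtr0174649, while the count over all transcripts was 949 in place of 2464. Without replicate 3 FBtr0174649 and FBtr0171052 remained, and without replicate 4 FBtr0166098 and FBtr0168509 were no longer past the threshold. FBtr0168509 was not past it either with each array centred on its median. In that setting FBtr0166167 was past it. Its agria minus organ pipe difference as reported was -0.18 (SE 0.05), with organ pipe higher in 12 of 12 pairs. GI10103, with the juvenile hormone-binding domain, differed by 0.15 (SE 0.07, adjusted p = 0.219, limma), which was not past the threshold.

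Between the Baja California populations, 2 of the 35 (5.71%) differed, both higher in San Quintin, against 1.09% of all transcripts, and 0.502% in this direction. FBtr0167637 had a lowest, median, and highest array of 7.80, 8.85, and 9.52 in PP flies (n = 25) and 8.33, 9.32, and 10.25 in SQ flies (n = 24), a difference of -0.50 (SE 0.10, adjusted p = 0.000125, limma). FBtr0165042 had 8.82, 9.82, and 10.97 in PP flies and 9.54, 10.05, and 11.44 in SQ flies, a difference of -0.40 (SE 0.08, adjusted p = 0.000331, limma). SQ was the higher in 6 of 6 pairs of groups matched for cactus and temperature, and the populations overlapped. Neither has an annotation. Without replicate 4 of every group FBtr0165042 was no longer past the threshold. Their deviations from the group means also ran together over the 97 arrays, with r = 0.79.

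Between the mainland populations, 3 of the 35 (8.57%) differed, against 3.90% of all transcripts. Of these 3, 2 were higher in PO, as 2.60% of all transcripts were, and 1 in OPNM, as 1.29% were. The ATP-binding transcript FBtr0170320 had a lowest, median, and highest array of 11.10, 11.82, and 12.36 in OPNM flies (n = 24) and 11.87, 12.50, and 13.07 in PO flies (n = 24). OPNM minus PO was -0.66 (SE 0.08), with an adjusted p of 4.38e-10 in limma, and PO was the higher in 6 of 6 pairs of groups. FBtr0163840, also called between the cacti, had 8.45, 9.28, and 10.39 in OPNM flies and 8.51, 10.08, and 10.85 in PO flies, a difference of -0.59 (SE 0.12, adjusted p = 0.000656, limma), with PO higher in 5 of 6. FBtr0161973 went the other way, with 11.19, 11.94, and 12.77 in OPNM flies and 9.79, 11.34, and 12.54 in PO flies, a difference of 0.72 (SE 0.18, adjusted p = 0.00508, limma) in 6 of 6. In each case the populations overlapped. Without replicate 1, and likewise without replicate 2, FBtr0170320 alone remained past the threshold, and without replicate 3 FBtr0161973 was no longer past it.

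**Figure D4:**
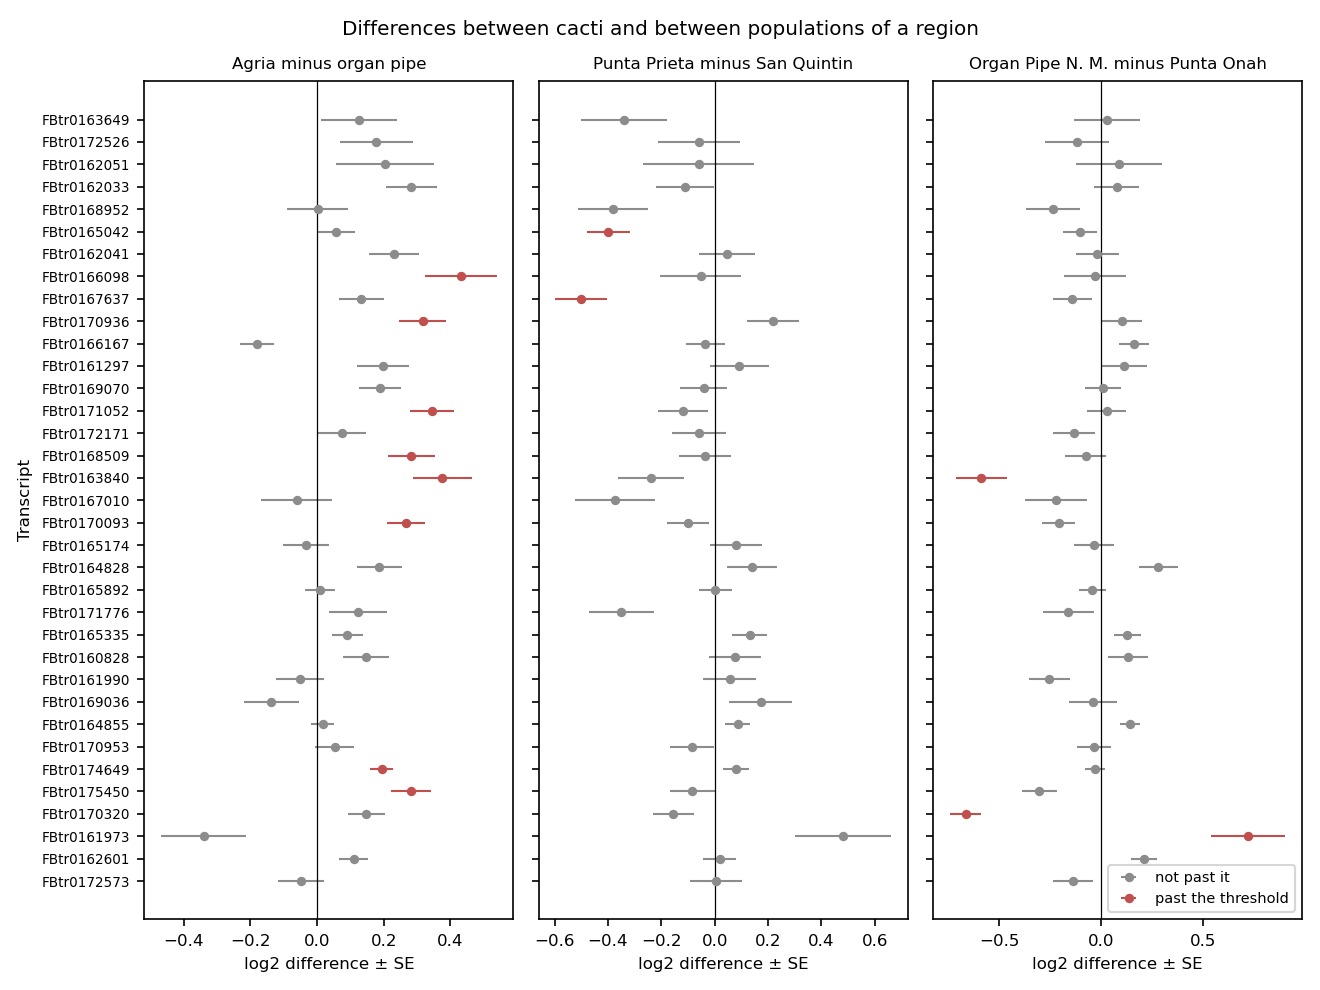
Differences (log2, with SE) between agria and organ pipe, between Punta Prieta and San Quintin, and between the mainland populations OPNM and PO for the 35 transcripts, in order of their smaller temperature step. Red marks the 8, 2, and 3 transcripts past the threshold, and the 8 between the cacti all lie right of 0.

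Whether the cactus difference itself differed between Baja California and the mainland was tested as an interaction. None of the 35 passed the threshold in limma, and 0.00% of all transcripts did. At an unadjusted p under 0.05 in limma there were 5 of the 35 (14.3%) and 908 of all transcripts (6.25%). FBtr0172526, FBtr0162033, FBtr0166098, and FBtr0165892 were among the 5. Their deviations from the group means correlated with each other at 0.51 to 0.88, so these are not separate results. The largest interaction was 0.47 (SE 0.21, adjusted p = 0.706, limma) in FBtr0166098. Interaction values of the 35 ran from -0.43 to 0.47, with a median SE of 0.14.

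The rule used group means alone and not the deviations of single arrays from them. Both come from the same arrays, so transcripts that vary together between arrays can also be chosen together. The deviations are thus not fully separate from the choice. Over the 595 pairs of the 35 transcripts, the correlation of these deviations had a median of 0.14 and ran from -0.64 to 0.88 over 97 arrays, and 79 pairs were above 0.5. Its mean was 0.15 in the 35 and 0.01 over all pairs of transcripts on the array. The points of such a correlation share the array, its normalization, and the pooled females, and no test was made. Without the 4 arrays that stood apart the median was 0.14 and 84 pairs were above 0.5.

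The highest correlation was that of FBtr0162033 with the cofactor-binding FBtr0166098, 0.88, followed by FBtr0172526 with FBtr0162041, 0.87, and FBtr0162033 with the transcription factor FBtr0169070, 0.84. These 5 had 10 to 12 partners each among the 35 above 0.5. The same deviations were set beside those of the vitelline membrane genes, which encode proteins of the inner eggshell layer. Their correlation with Vm26Ab was above 0.5 in 11 of the 35, with a median of 0.29 and a range from -0.31 to 0.84, and that with Vm26Aa was above 0.5 in 10. Over the 14527 transcripts other than the gene itself, the 35 included, 21 (0.145%) were above 0.5 with Vm26Ab and 21 with Vm26Aa, with medians of -0.0026 and -0.0071. FBtr0162041 had the highest with Vm26Ab, 0.84, and FBtr0162051 was at 0.89 with Vm26Aa. FBtr0163649, with the largest smaller step, was at 0.30 and 0.47, GI10103 at 0.46 and 0.60, and the P450 transcript FBtr0175450 at 0.26 and 0.14. At the other end, FBtr0169036 was at -0.31 and -0.15. No chorion gene was set beside the 35, so these correlations concern vitelline membrane genes alone.

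**Figure D5:**
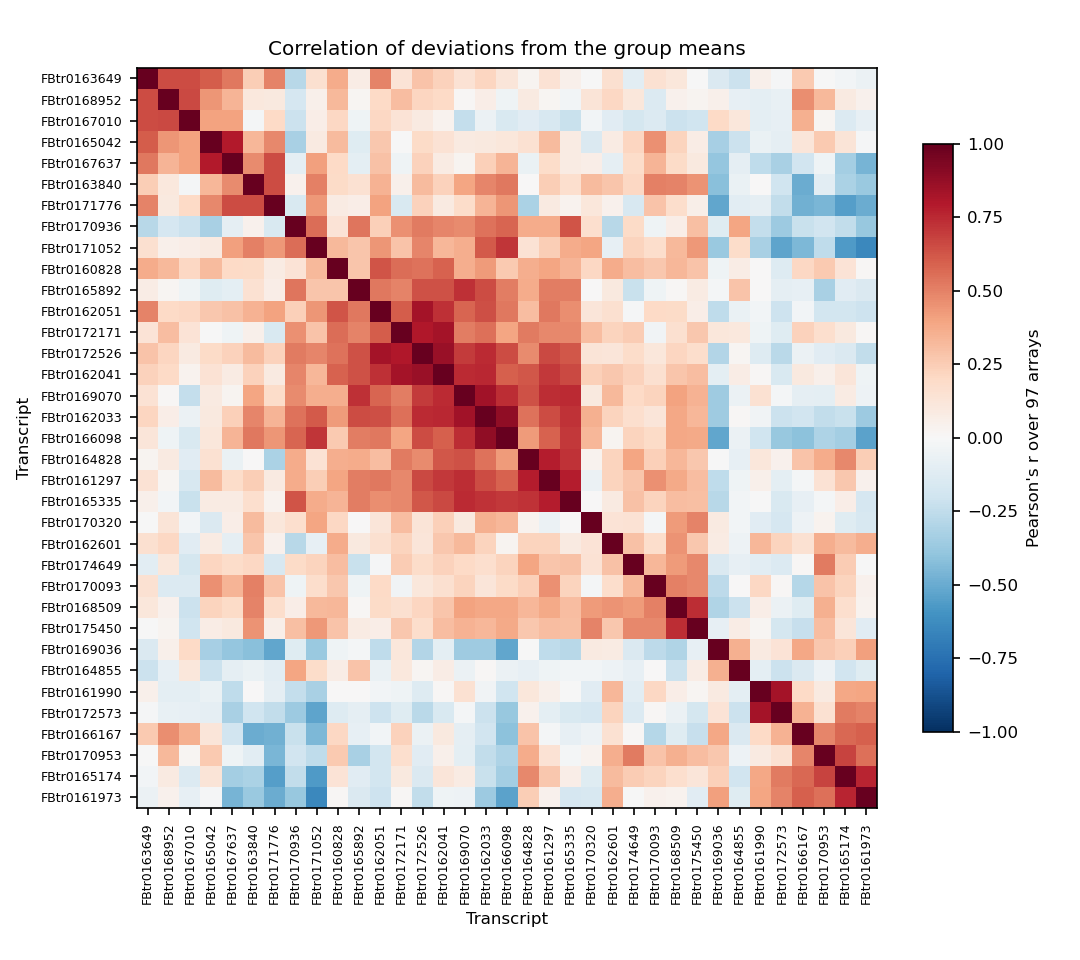
Pearson's r of the deviations from the group means, over 97 arrays, for each pair of the 35 transcripts, ordered by average-linkage clustering. A block with values up to 0.88 holds many of the transcripts, and values down to -0.64 lie between it and smaller groups.

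The lists of genes by function that were searched held few of the 35. Of the 2 transcripts of ecdysteroid and juvenile hormone genes that the tables pair, GI10103 is 1, and *phantom*, a P450 of ecdysteroid synthesis that the rule set aside, is the other. Of 25 transcripts listed as cytochrome P450s, FBtr0175450 alone belongs to the 35. Within that list 0 were higher at 25 than at 15°C past the threshold in limma and 8 were lower, and 14 were lower and 3 higher at 35 than at 25°C, beside 1.71%, 4.36%, 7.02%, and 5.48% of all transcripts. On agria 17 of the 25 were higher and on organ pipe 0, beside 14.5% and 2.44% of all transcripts. In other lists, 137 of 198 digestive peptidase, 25 of 43 peptidase inhibitor, and 15 of 17 immune transcripts were higher on agria. The tables that pair these names with transcripts list genes that the study selected on the same arrays, in part for a difference between the cacti. The counts of these lists and of the P450s follow in part from that selection. They therefore cannot be read against the shares of all transcripts. The eggshell list held Vm26Aa and Vm26Ab alone, both set aside by the rule, so its count of 0 members was fixed. Their steps were 2.18 and 1.63 from 15 to 25°C and -0.58 and -0.60 from 25 to 35°C. The list held no chorion gene, so it stands for vitelline membrane genes only. The paper reports that several chorion genes fell between the lower temperatures, while several vitelline membrane genes rose. Chorion genes were not examined here. Other lists with no member among the 35 were those of digestive peptidases (198 transcripts), peptidase inhibitors (43), cuticle (21), immune (17), ribosome and translation (17), heat shock (15), lipid (12), muscle (4), and secretory pathway (1) genes. The tables paired no transcript with the lists of yolk, clock, and male reproductive genes.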

How the data were processed

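Cy3-labeled cDNA from pooled females was hybridized to NimbleGen one-color arrays. The authors applied quantile normalization across arrays and combined probes into transcript values by RMA (version not given in the sources used here), and the deposited values are log2 values for 14528 transcripts on 97 arrays. Raw intensities and background were not used here. No further normalization or filter was applied. The number of arrays limits the precision.

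With limma 3.58.1 in R 4.3.3, 1 mean was fitted for each of 24 groups (lmFit, eBayes, 73 residual degrees of freedom). Differences were contrasts of equally weighted group means, so they can differ slightly from differences between the array means given. Benjamini-Hochberg adjustment of p-values ran over 483 pairwise comparisons and all transcripts together, and within the term for the interaction, with a threshold of 0.01. The script was tested on simulated data. Replicate numbers were taken from the labels, and OPNM flies from organ pipe at 35°C have 2 arrays labelled replicate 3.

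The members and gene lists were chosen with earlier results of these data known. Gene names and functional terms came from those supplementary tables of the paper that were available, which pair 4000 transcripts with a gene. The text names the members with an orthologue or functional term, the 4 others with the largest smaller step, up to 3 in each direction past the threshold in each test, and 3 on either side of the limit. FBtr0162041, FBtr0168952, FBtr0168509, FBtr0170093, FBtr0174649, FBtr0169036, FBtr0166167, and FBtr0165892 were named after their values were seen.

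Alternatives, 1 at a time, were quantile normalization again, centring each array on its median, the array interquartile range as covariate, leaving out the dimmest 25% of transcripts, eBayes with trend and robust variances, a replicate block, each replicate left out, adjustment within the comparison, only the arrays of the compared populations, and other step limits. Leaving out the arrays that stood apart was added after seeing the data.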

Additional observations from a re-analysis of the deposited data

Results flagged for a closer look

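In 3 of the 24 groups the average of the 35 transcripts in 1 array lay farther from the others than Dixon's 95% critical value allows. All were at 15°C, and each was the highest of its group. PO from agria replicate 1 was at 10.53, beside a next value of 10.45. OPNM from organ pipe replicate 2 was at 10.77, beside 10.27. SQ from organ pipe replicate 2 was at 10.54, beside 10.44. Chance alone flags about 1 in 20 groups. None of the 4 arrays that stood apart over all transcripts was among the 3.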

How the results depend on the processing

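The rule gave 35 transcripts as reported, 34 after quantile normalization again (30 of them shared with the 35), 39 with each array centred on its median, 33 without the dimmest transcripts, and 26 to 86 when 1 replicate of every group was left out. The highest of these, 86 without replicate 4, held 28 of the 35. With step limits of 0.2, 0.3, and a change of 1.5 times it gave 65, 23, and 9. Without the 4 arrays that stood apart, a choice made after the data were seen, it gave 75, and without single ones of them 33 to 56, with 56 for SQ from agria at 35°C replicate 4. The cause was not tested.

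Members past the threshold between the cacti numbered 8 as reported, 8 to 11 under the other settings, and 1 to 10 with a replicate left out. The 8 as reported were all higher on agria, but calls gained under some settings included transcripts with a higher mean on organ pipe. FBtr0166167 (difference -0.18) was gained after quantile normalization again, with each array centred on its median, and with adjustment within the comparison. Without the 4 arrays that stood apart it was gained together with FBtr0161973 (difference -0.34). Between PP and SQ the count of 2 was 1 to 2 with a replicate left out, and between OPNM and PO the count of 3 was 1 to 3. The latter was 5 without the 4 arrays that stood apart. The interaction gave 0 under every setting run. None of the 13 differences past the threshold changed direction under a setting in which it was tested. Counts of 2 and 3 are small, and 1 replicate decides some of these calls.

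With the replicate number as a block, the counts were 8, 2, 3, and 0 and the rule gave 37, so that it changed no call. The replicate numbers showed no pairing of the arrays on average. Deviations of same-numbered arrays from different groups had mean correlations of -0.02 to 0.00, against 0.01 for different numbers. Of 97 arrays, 24 correlated best with their own number. Single same-numbered pairs ran from -0.86 to 0.84, and different-numbered ones from -0.84 to 0.89. Such means cannot show whether some of the groups shared a batch, which was not tested.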
